A study of Mus musculus with 12 samples.

Results

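The comparison described here is that of genotype under drug: livers of MycF/F,ERT2-Cre mice against livers of MycF/F mice, all from mice fed 0.1% Wy-14643 for 2 days. The arrays were taken by their labels, which gave 4 MycF/F,ERT2-Cre arrays (replicates 1 to 4) and 3 MycF/F arrays (replicates 1 to 3), 7 of the 12 arrays in the series. The other 5 arrays, 4 of MycF/F,ERT2-Cre and 1 of MycF/F on control diet for the same 2 days, were used for values given beside those on the drug. The 4 MycF/F,ERT2-Cre control arrays also entered the shared estimate of spread, to which a group of 1 array adds nothing. All mice are labelled C57BL/6, and both genotypes carry floxed Myc alleles, with genotype fields reading "wt" for MycF/F and "ko" for MycF/F,ERT2-Cre. On every array whole-liver RNA was read in Cy5 against a pooled liver reference in Cy3, so every level below is a log2 ratio to that reference and every difference is the MycF/F,ERT2-Cre mean minus the MycF/F mean on the log2 scale.

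MYC is a transcription factor that pairs with MAX, binds E-box sequences and is best known for driving genes of ribosome production, nucleotide synthesis and the cell cycle. Wy-14643 activates PPARα, a nuclear receptor through which hepatocytes raise their fatty acid oxidation, and in mice it also causes hepatocytes to divide and the liver to grow. In the MycF/F,ERT2-Cre line, Cre recombinase is fused to a mutated estrogen receptor domain that holds it out of the nucleus until a ligand such as tamoxifen is given, after which it can cut out the floxed stretch.

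The labels give no tamoxifen treatment, no Cre promoter, no sex and no animal identity, and the RNA of the lone MycF/F control array is labelled as pooled. Nothing says that samples of a group are separate animals, so p-values measure the spread between these samples, which may be technical. Median Cy5 signal over local background ran from 3.29 to 4.82 on the 7 arrays, and the number of arrays limits the precision. The 12 arrays lay on 3 slides of 4, each slide scanned at its own time. Slide 1 held replicate 1 of both genotypes on the drug, slide 2 held replicate 2 of both, and slide 3 held replicate 3 of both and replicate 4 of MycF/F,ERT2-Cre. Slide 1 stood apart, with 5.47% to 8.35% of spots marked as outliers by the scanner software against at most 1.84% elsewhere, so results are also given within slides and without slide 1. Of 24 listed hepatocyte identity and apolipoprotein genes 21 were measured, among them Alb and Hnf4a. Since each value is a ratio to pooled liver, the level of a marker does not by itself check the tissue.

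Myc RNA was lower in MycF/F,ERT2-Cre livers on 2 of its 3 probes. Probe A_51_P102096 read 0.88, 0.52 and 0.88 in MycF/F livers on Wy-14643 and -1.21, -1.15, -0.96 and -1.03 in those of MycF/F,ERT2-Cre mice. All 4 MycF/F,ERT2-Cre arrays lay below all 3 MycF/F arrays, a difference of -1.85 (SE 0.17, 3.61-fold lower), which was -2.94 with the deposited log ratios. When each of 31738 probes was fitted by itself, 35 passed an adjusted p of 0.05 (0.11%), and this probe had an adjusted p of 0.00386 (limma, Benjamini-Hochberg over all probes). Its difference was -2.09, -1.67 and -1.88 within slides 1, 2 and 3. Probe A_52_P108346 fell by 1.82 (SE 0.19, adjusted p = 0.0056 in limma), again with no overlap. The third probe, A_52_P278549, which stands for the gene in the fit over genes, read 0.61 and 0.50 in the MycF/F arrays that measured it and -0.02, 0.05 and -0.07 in those of MycF/F,ERT2-Cre, a difference of -0.57 (SE 0.16) that did not pass (adjusted p = 0.27). On control diet the same 3 probes differed by -0.98, -1.05 and -0.21, each against the single MycF/F array. Where each probe lies in the gene was not determined here, and a probe that lies outside the floxed stretch checks nothing about its removal. Without MycF/F replicate 3 probe A_51_P102096 differed by -1.79 and no longer passed (adjusted p = 0.056), nor did it with the replicate block on 12 arrays (-1.81, adjusted p = 0.0727) or with median centring (-1.67, adjusted p = 0.424). With the replicate block on the 7 arrays it differed by -1.87 (adjusted p = 0.000639).

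**Figure D1:**
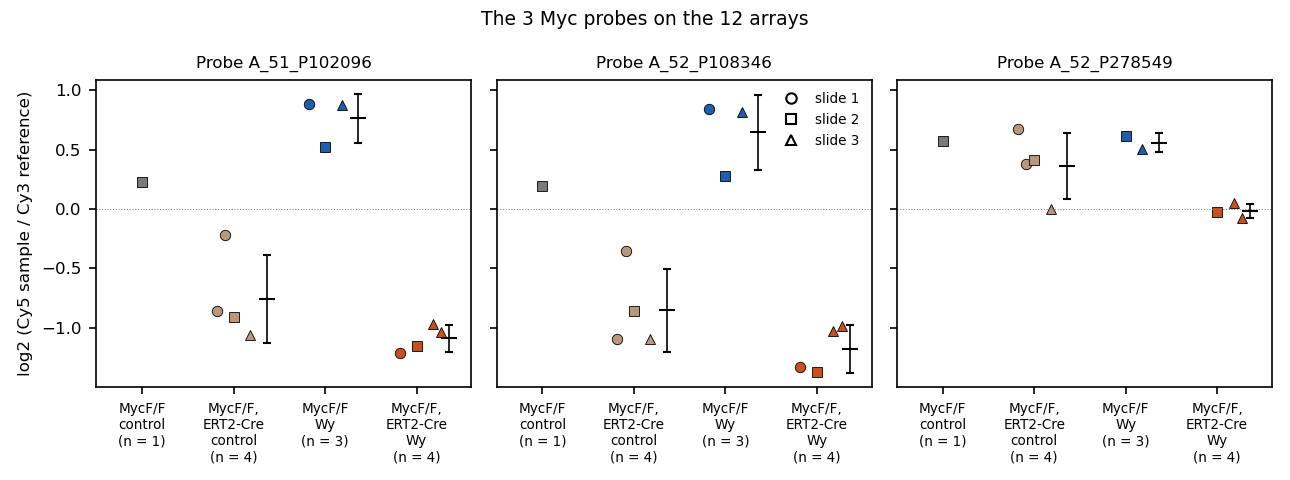
Log2 ratio of Cy5 sample over Cy3 reference for the 3 Myc probes on the 12 arrays, by group; symbols mark the slide and the bar beside each group is its mean with SD. On the first 2 probes every MycF/F,ERT2-Cre array on Wy-14643 lies below every MycF/F array on Wy-14643, and the third probe has no value on replicate 1 of either of these groups.

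Across all genes the difference between the genotypes on the drug was small, with few genes past the threshold. Of 25169 genes tested, 14572 with a symbol and the others under their array accession, 26 passed an adjusted p of 0.05 (0.103%). Of these, 21 were lower in MycF/F,ERT2-Cre livers (0.0834%) and 5 were higher (0.0199%). In all 26 the groups did not overlap, and the sign was the same in each slide that gave a value. The differences were modest, from 0.456 to 1.33 in size, and only 2 reached 2-fold. At an unadjusted p under 0.05 there were 2088 genes (8.3%), 1147 of them lower (4.56%) and 941 higher (3.74%), and the median difference over all genes was 0.02. The 95% interval of a gene's difference reached 0.25 to each side by the median, without adjustment for the number of genes. The adjusted threshold was stricter, and no called difference was smaller than 0.456. Differences well above 0.25 could thus also be missed.

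The number of genes called depended strongly on the processing and on single arrays. With the replicate number as a block no gene passed in the 12-array fit and 23 passed in the fit of the 7 arrays, 8 of them among the 26. Among the control diet arrays the replicate number does not follow the slide, so the 12-array block joins arrays of different slides. With the slide itself as a block 35 genes passed, 21 of them among the 26. Without MycF/F,ERT2-Cre replicate 1, 8 genes passed (6 of them among the 26), without any other of the 7 arrays none did, and without the 4 arrays of slide 1 there were 110 (34 higher, 76 lower), 21 of them among the 26. No gene passed with the deposited log ratios, with median centring in place of loess or with the Cy5 channel alone. The sign held better than the call, since each of the 21 called genes with a symbol kept its sign under every alternative run, except D630023F18Rik on the Cy5 channel alone.

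**Figure D2:**
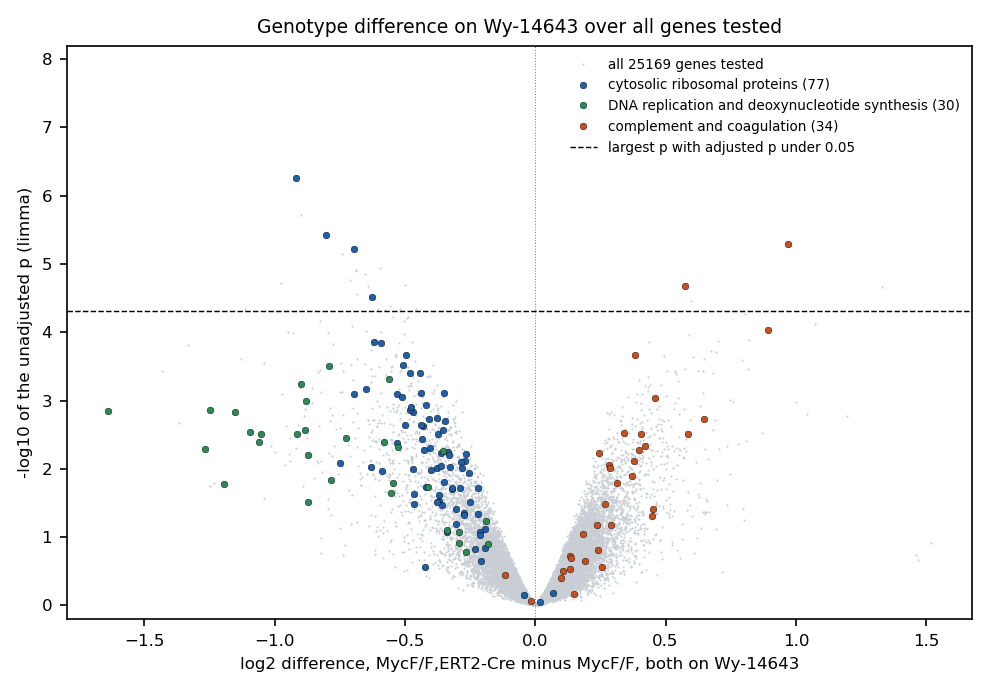
Difference between the genotypes on Wy-14643 (log2, horizontal) against -log10 of the unadjusted p from limma (vertical) for the 25169 genes tested, with 3 gene lists in colour. Ribosomal protein genes lie almost all to the left of 0, DNA replication genes all to the left with wider spread, and complement and coagulation genes mostly to the right.

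The genes that fell were led by components and makers of the ribosome. Rplp1, which encodes an acidic protein of the ribosomal stalk, read 0.80, 0.81 and 0.81 in MycF/F arrays and -0.15, -0.11 and -0.08 in the 3 MycF/F,ERT2-Cre arrays that measured it. The values within each genotype lay close together and the groups were far apart, a difference of -0.92 (SE 0.08, 1.89-fold lower, adjusted p = 0.014 in limma). Rpl12, a protein of the large subunit near the stalk, read 0.55, 0.47 and 0.43 against -0.10, -0.34, -0.44 and -0.41, a fall of 0.80 (SE 0.10, adjusted p = 0.0295 in limma). Rps12 of the small subunit read 0.70, 0.74 and 0.76 against 0.17, 0.09, -0.07 and -0.04. Its difference was -0.70 (SE 0.09, adjusted p = 0.0295 in limma), and the slide 1 array of MycF/F,ERT2-Cre was the nearest to the MycF/F arrays for both Rpl12 and Rps12. Rplp0, the stalk base protein, was measured on 2 MycF/F and 4 MycF/F,ERT2-Cre arrays and differed by -0.63 (SE 0.09, adjusted p = 0.0427 in limma). Rack1, which sits on the small subunit as a signalling scaffold, differed by -0.52 (SE 0.08, adjusted p = 0.0468 in limma), and a second probe for it by -0.52.

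As a family, 75 of 77 measured cytosolic ribosomal protein genes were below 0, with a median difference of -0.38 against 0.02 over all genes. Of the 77, 4 passed the adjusted threshold, all lower, and 65 had an unadjusted p under 0.05, all lower, where 4.56% of all genes did so in that direction. Of 37 members measured on all 7 arrays, 27 had MycF/F,ERT2-Cre values that lay wholly below those of MycF/F (5.23% of all genes with 7 values). Within slides 1, 2 and 3 the median of the family was -0.20, -0.29 and -0.50. Among members that missed the threshold, Rpl35 differed by -0.62 (adjusted p = 0.0736 in limma) and Rpl10a by -0.59 (adjusted p = 0.0736). The count at an unadjusted p was 43 without MycF/F replicate 3, 29 with median centring and 36 with the Cy5 channel alone. With median centring and with Cy5 alone 289 and 502 of all 25169 genes were lower at an unadjusted p. The family median stayed between -0.43 and -0.33 over the alternatives run. Ribosomal protein genes have many near-identical pseudogene copies, and a probe may also take up transcripts of such copies.

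Messages of ribosomal proteins and of Rack1 are known to begin with a run of pyrimidines, the 5′ terminal oligopyrimidine tract, through which their translation is controlled by nutrient signals. The sequences around the annotated start of the 4 called genes of this kind with a RefSeq entry are shown for that reason, each from 40 bases before the start through the first 20 transcribed bases, GRCm38.p6, 5′ to 3′ on the gene's strand. Capitals mark the longest unbroken run of C and T that reaches within 10 bases of the start.
Rack1, chr11:48800320-48800379, plus strand: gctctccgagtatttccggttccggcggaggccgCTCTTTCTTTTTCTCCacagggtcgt
Rpl12, chr2:32961672-32961731, plus strand: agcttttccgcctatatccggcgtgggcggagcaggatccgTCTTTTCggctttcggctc
Rplp0, chr5:115559427-115559486, plus strand: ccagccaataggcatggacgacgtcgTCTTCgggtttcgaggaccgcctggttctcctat
Rps12, chr10:23787190-23787249, minus strand: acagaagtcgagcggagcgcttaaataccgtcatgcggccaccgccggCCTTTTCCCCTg
The run was 16 bases long in Rack1, 11 in Rps12, 7 in Rpl12 and 5 in Rplp0. Counted from the annotated start, its first base lay at -6 in Rack1, 1 in Rpl12, 8 in Rps12 and -14 in Rplp0. Only the run of Rack1 thus covers the annotated start, and that of Rplp0 ends before it. Whether a marked run is the terminal tract of the message was not tested. A run of at least 8 bases, searched on the transcribed strand alone, was present in 28 of 57 ribosomal protein genes with an entry (49.1%), against 16.5% of 11649 tested genes with an entry and 15.8% of all 27025 genes in the table. Such a run was found in 1 of 32 ribosome biogenesis genes and 2 of 21 translation factor genes, lists that were also mostly below 0. Some lists that were not mostly below 0 had shares like that of the ribosomal protein genes. Among these were cholangiocyte markers (4 of 8, 50%), endothelial markers (5 of 11, 45.5%) and glycolysis genes (8 of 19, 42.1%). Ribosomal protein genes with the run had a median difference of -0.39 and those without it -0.35. The run was searched after the values of the family were seen.

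**Figure D3:**
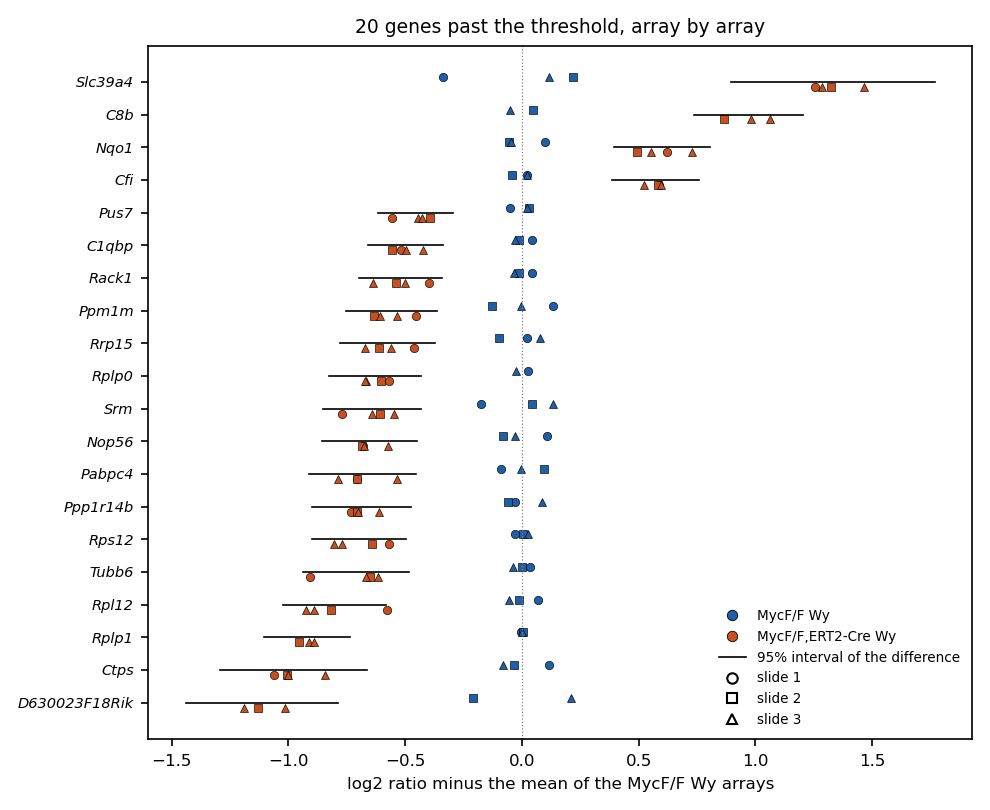
Log2 ratio on each of the 7 arrays for 20 of the genes with a symbol that passed the threshold, drawn as the distance from the mean of the MycF/F arrays on Wy-14643; symbols mark the slide and the line is the 95% interval of the difference. In each of them the MycF/F,ERT2-Cre arrays lie wholly to one side of the MycF/F arrays, 16 genes to the left and 4 to the right.

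Ribosome assembly genes were also mostly lower. Nop56, a core protein of the box C/D particles that guide methylation of ribosomal RNA, read 0.70, 0.51 and 0.56 in MycF/F arrays and -0.09, -0.09, -0.09 and 0.01 in MycF/F,ERT2-Cre arrays. It fell by 0.65 (SE 0.09, adjusted p = 0.0347 in limma). Its partner Nop58 differed by -0.65 (SE 0.11, adjusted p = 0.0643), and Mrto4, a factor for assembly of the large-subunit stalk, by -0.49 (SE 0.08, adjusted p = 0.0512), so neither passed. Outside the list, Rrp15, needed for maturation of large-subunit ribosomal RNA, fell by 0.58, and Pus7, a pseudouridine synthase, fell by 0.46 (adjusted p = 0.0468 for each in limma). A second Pus7 probe read a smaller difference of -0.22. Of 37 ribosome biogenesis genes measured, 34 were below 0 with a median of -0.27. The threshold was passed by 1 member, and 21 had an unadjusted p under 0.05, all lower. Over all genes 0.0834% were called lower and 4.56% were lower at an unadjusted p. The slide medians were -0.25, -0.31 and -0.26. With median centring 5 members and with the Cy5 channel alone 13 had an unadjusted p under 0.05, settings under which 289 and 502 of all 25169 genes were lower.

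Other parts of the protein-making machinery gave smaller medians in the same direction. Pabpc4, a cytoplasmic poly(A)-binding protein, read 0.32, 0.51 and 0.41 in MycF/F arrays against -0.29, -0.29, -0.12 and -0.38, a fall of 0.68 (SE 0.11, adjusted p = 0.0404 in limma), and a second probe differed by -0.52. C1qbp, a mitochondrial matrix protein needed for mitochondrial translation, fell by 0.50 (adjusted p = 0.0347). Of 27 translation initiation and elongation factors none passed and 9 were lower at an unadjusted p, with a median of -0.21 and Eef1b2, an elongation factor subunit, at -0.65 (adjusted p = 0.102). Of 76 mitochondrial ribosomal protein genes none passed and 12 were lower at an unadjusted p, with a median of -0.12. Among 12 genes of the CCT chaperonin and the mitochondrial chaperones, which fold newly made proteins, none passed and 5 were lower at an unadjusted p. Cct5 differed by -0.35 and Cct2 by -0.32. With median centring the counts at an unadjusted p were 1 translation factor, 0 mitochondrial ribosomal protein genes and 0 chaperone genes, and with the Cy5 channel alone 5, 2 and 1. Over all genes 289 and 502 were lower at an unadjusted p under these settings, against 1147 (4.56%) with loess.

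Single enzymes of nucleotide and polyamine synthesis fell as well. Ctps, which makes CTP from UTP, read 0.66, 0.50 and 0.46 in MycF/F arrays and -0.52, -0.47, -0.46 and -0.30 in MycF/F,ERT2-Cre arrays. The groups lay far apart, with a difference of -0.98 (SE 0.14, 1.97-fold lower, adjusted p = 0.0347 in limma). Cad, which carries out the opening steps of pyrimidine synthesis, gave unlike values on its 3 probes, and the following values were chosen after they were seen. The probe that stands for the gene differed by 0.04 (adjusted p = 0.988), while probes A_52_P16098 and A_51_P277941 fell by 0.63 (SE 0.07, adjusted p = 0.00944 over all probes) and by 0.70 (SE 0.09, adjusted p = 0.0138). On A_52_P16098 the arrays read 0.08, 0.04 and 0.08 in MycF/F livers and -0.57, -0.62, -0.60 and -0.46 in MycF/F,ERT2-Cre livers, with no overlap. Srm, spermidine synthase, read -0.00, 0.22 and 0.31 against -0.60, -0.43, -0.37 and -0.47 and fell by 0.64 (SE 0.10, adjusted p = 0.0347). Odc1, the rate-limiting enzyme of polyamine synthesis and a much studied MYC target, read -0.10, 0.35 and 0.18 against -0.05, 0.04, 0.09 and 0.10. These values overlapped, with a difference of -0.10 (95% interval -0.37 to 0.17, adjusted p = 0.965), and its 2 other probes differed by 0.00059 and 0.21. Of 20 purine and pyrimidine synthesis genes 1 passed and 8 were lower at an unadjusted p, with a median of -0.17. Over all genes 0.0834% were called lower and 4.56% were lower at an unadjusted p. With median centring 1 member and with the Cy5 channel alone 2 were lower at an unadjusted p, against 289 and 502 of all 25169 genes. Atic, which closes the purine ring, differed by -0.52 (adjusted p = 0.0736) and Umps, which makes UMP, by -0.64 (adjusted p = 0.189). Of 11 polyamine genes 1 passed, and the median was -0.04.

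The other called genes that fell have varied roles. Tubb6, a beta-tubulin, read 0.29, 0.25 and 0.21 in MycF/F arrays and -0.66, -0.40, -0.37 and -0.42 in MycF/F,ERT2-Cre arrays. The groups did not overlap, with a fall of 0.71 (SE 0.10, adjusted p = 0.0347 in limma). Ppp1r14b, an inhibitor of protein phosphatase 1, fell by 0.69 (adjusted p = 0.0347), with a second Ppp1r14b probe at -0.70. Ppm1m, a protein phosphatase, fell by 0.56 and the unannotated D630023F18Rik by 1.11 (adjusted p = 0.0468 for each). D630023F18Rik was measured on 2 MycF/F and 3 MycF/F,ERT2-Cre arrays, and on the Cy5 channel alone its difference turned to 0.44. A further 5 called features, 4 lower and 1 higher, carry only array accessions.

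The E-box that MYC and MAX bind best, CACGTG, was searched in RefSeq promoters of GRCm38.p6, from 250 bases before to 50 after each annotated start. The motif reads the same on both strands, so a single search covers both. It was present in 1 of 13 genes called lower with an entry, in 6 of 57 ribosomal protein genes (10.5%), 5 of 32 ribosome biogenesis genes (15.6%) and 3 of 25 DNA replication genes, against 10.4% of tested genes and 8.09% of all genes in the table. Some other lists with a median below 0 held it more often. Among these were translation factors (6 of 21, 28.6%), G1 genes (4 of 16, 25.0%) and purine and pyrimidine synthesis (4 of 19, 21.1%). Others did not, with 1 of 23 G2/M genes (4.35%), 5 of 67 mitochondrial ribosomal protein genes (7.46%) and 1 of 10 chaperone genes (10.0%). Lists with a median above 0 also varied widely. The motif was present in 5 of 16 circadian clock genes (31.2%) and 4 of 18 genes of the growth hormone axis (22.2%). In the complement and coagulation list it was present in 0 of 25. High and low shares were thus found on both sides of 0. The 1 called gene was Pus7, with the first letter of the motif 28 bases after a start on chromosome 5. The absence of these letters from a window of this size says nothing about binding elsewhere.

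DNA replication genes showed the largest list median, but with a spread between arrays that kept every member from passing. Mcm5, a subunit of the helicase that opens replication origins, read 1.22, 0.77 and 0.53 in MycF/F arrays and -2.02, -0.28, -0.80 and -0.11 in MycF/F,ERT2-Cre arrays. The groups did not overlap, yet the slide 1 arrays held both the highest and the lowest value, and the difference of -1.64 (SE 0.40) had an adjusted p of 0.176. Within slides 1, 2 and 3 the difference of Mcm5 was -3.24, -1.04 and -0.99. Fen1, the flap endonuclease that trims Okazaki fragments, read 0.60, 0.21 and 0.18 against -0.32, -0.43, -0.56 and -0.53, a difference of -0.79 (SE 0.16, adjusted p = 0.102). Pcna, the sliding clamp, differed by -0.88 and Rrm1, the large subunit of ribonucleotide reductase, by -1.05 (adjusted p = 0.204 and 0.212).

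Of 30 replication genes measured, all 30 were below 0, from -1.64 to -0.18 with a median of -0.79. None passed the adjusted threshold, and 24 had an unadjusted p under 0.05, all lower (4.56% over all genes). Of 27 measured on all 7 arrays, 22 had groups that did not overlap (5.23% over all genes). The slide medians were -1.50, -0.52 and -0.45, so slide 1 carried the most extreme values, and without its 4 arrays the median was -0.50 and 6 members passed. With the deposited log ratios the median was -1.14. With median centring 15 members had an unadjusted p under 0.05, a setting under which 289 of all 25169 genes were lower. Of 28 G2/M and mitosis genes 10 and of 20 G1 genes 7 were lower at an unadjusted p, and none passed. Mad2l1, of the spindle checkpoint, differed by -1.04 (SE 0.21, adjusted p = 0.101), and Ccne1, cyclin E1, by -0.89 (SE 0.22, adjusted p = 0.186), while its second probe differed by -0.07.

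**Figure D4:**
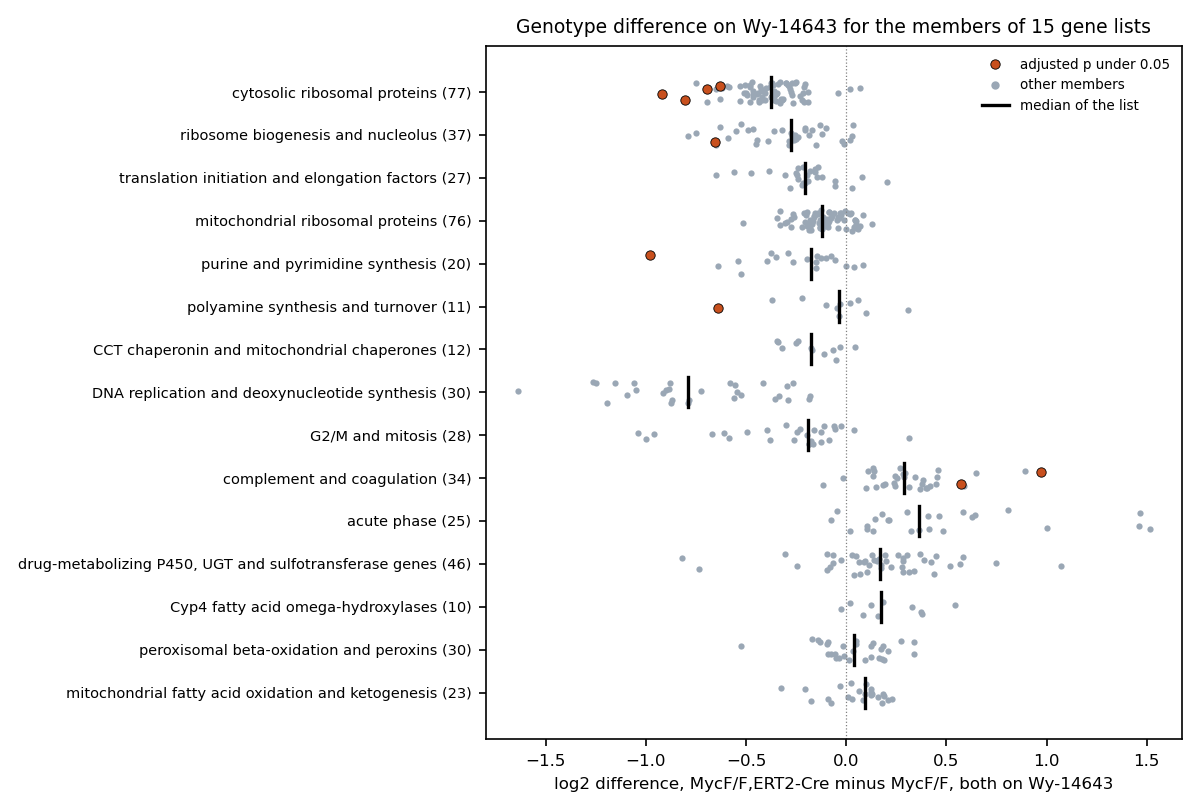
Difference between the genotypes on Wy-14643 for the members of 15 gene lists, 1 point per gene, with the list's median as a bar and the number of genes tested in brackets. Lists of protein synthesis and the cell cycle have medians below 0, plasma protein lists lie above 0, and lists of PPARα target enzymes have medians from 0.04 to 0.17.

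Complement, coagulation and acute phase genes, which encode plasma proteins secreted by hepatocytes, were mostly on the opposite side. C8b, a chain of the terminal complement complex, read -1.91 and -2.01 in MycF/F arrays and -1.10, -0.98 and -0.90 in MycF/F,ERT2-Cre arrays, with no value on slide 1. It rose by 0.97 (SE 0.10, 1.96-fold, adjusted p = 0.0295 in limma). Cfi, the protease that inactivates C3b and C4b, read -1.01, -1.07 and -1.01 against -0.44, -0.44, -0.50 and -0.43, a tight separation that gave a difference of 0.57 (SE 0.09, adjusted p = 0.0347). C4b differed by 0.89 (SE 0.15, adjusted p = 0.0643) and coagulation factor F12 by 0.38 (SE 0.07, adjusted p = 0.092). Of 34 complement and coagulation genes measured, 32 were above 0 with a median of 0.29, 2 passed and 20 had an unadjusted p under 0.05, all higher (3.74% over all genes). Of 18 with all 7 values, 11 had groups that did not overlap (5.32% over all genes). The slide medians were 0.39, 0.32 and 0.27. With median centring 5 and with the Cy5 channel alone 8 members had an unadjusted p under 0.05, settings under which 173 and 347 of all 25169 genes were higher. In the acute phase list none of 25 passed and 7 were higher at an unadjusted p, with a median of 0.36 and Itih4, an inter-alpha-trypsin inhibitor chain, at 1.00 (adjusted p = 0.16).

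The other 2 named genes that rose were Slc39a4 and Nqo1. Slc39a4, the zinc importer ZIP4, read -1.64, -1.08 and -1.19 in MycF/F arrays and -0.05, 0.02, 0.16 and -0.02 in MycF/F,ERT2-Cre arrays, the largest called difference at 1.33 (SE 0.20, 2.52-fold, adjusted p = 0.0347 in limma). Nqo1, a quinone reductase and NRF2 target, read -0.32, -0.47 and -0.46 against 0.21, 0.08, 0.31 and 0.14 and rose by 0.60 (SE 0.09, adjusted p = 0.0466). Of 32 NRF2 and glutathione genes, Nqo1 alone passed and 8 were higher and 1 lower at an unadjusted p. Of 46 drug-metabolizing P450, UGT and sulfotransferase genes none passed and 12 were higher at an unadjusted p, with Cyp2f2 at 1.07 (SE 0.18, adjusted p = 0.0568). Of 20 genes of the growth hormone, IGF and cytokine receptor axis none passed and 7 were higher at an unadjusted p, among them Socs2, a brake on growth hormone signalling, at 1.04 (adjusted p = 0.18). Over all genes 3.74% were higher at an unadjusted p. With median centring the higher members of these lists numbered 1, 3 and 2 in the same order. With the Cy5 channel alone they numbered 2, 7 and 1. Over all 25169 genes 173 and 347 were higher under these settings. Gnmt, a glycine methyltransferase abundant in liver, read -1.60, -1.52 and -1.54 against -0.57, -0.94, -0.85 and -1.08, a difference of 0.69 (adjusted p = 0.088).

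Markers of macrophages and endothelium lay mostly above 0, and those of other non-parenchymal cells did not. Of 15 Kupffer cell and macrophage markers measured of 17 listed, 14 were above 0 with a median of 0.32, none passed and 7 were higher at an unadjusted p (3.74% over all genes). The mean of the 8 markers with a value on every array ran from -0.58 to -0.15 in MycF/F arrays and from -0.42 to -0.09 in MycF/F,ERT2-Cre arrays, which overlap. C1qa and C1qb, complement subunits made by macrophages, differed by 0.58 and 0.57 (adjusted p = 0.224 and 0.248). Of 16 endothelial markers 6 were higher at an unadjusted p, with a median of 0.20. The mean of the 14 with a value on every array ran from -0.34 to -0.19 in MycF/F arrays and from -0.18 to -0.07 in MycF/F,ERT2-Cre arrays, which lie close together without overlap. With median centring 1 Kupffer cell marker and 0 endothelial markers, and with the Cy5 channel alone 5 and 1, were higher at an unadjusted p, settings under which 173 and 347 of all 25169 genes were. Stellate cell and fibroblast markers had a median of 0.03 (9 of 16 above 0, 1 higher at an unadjusted p) and lymphocyte and NK cell markers of 0.01 (7 of 14 above 0, 1 lower). None of the cholangiocyte, neutrophil, erythroid, acinar or adipocyte markers had an unadjusted p under 0.05. In whole liver, fewer cells of a type and less RNA per cell cannot be told apart, and the part of these markers in the results above was not tested. Of 21 hepatocyte identity and apolipoprotein genes measured, 17 were above 0, with a median of 0.10, and none passed. At an unadjusted p 6 were higher (3.74% over all genes) and 1 was lower (4.56% over all genes). Alb, the most abundant plasma protein, is in this list and in neither of the plasma protein lists above, and it had the lowest difference of the 21. It read 0.91, 0.81 and 1.00 in MycF/F arrays and 0.60, 0.48, 0.09 and 0.09 in MycF/F,ERT2-Cre arrays, a difference of -0.59 (adjusted p = 0.138).

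Enzymes of the PPARα programme had list medians from 0.04 to 0.17, and no PPARα-responsive gene listed passed. Of 10 Cyp4 omega-hydroxylase genes 9 were above 0 and 2 were higher at an unadjusted p (3.74% over all genes). Cyp4a10 read 0.52, 0.64 and 0.59 against 1.01, 1.06, 0.89 and 0.88, a difference of 0.38 (SE 0.15, adjusted p = 0.533). Of 23 mitochondrial genes for fatty acid oxidation and ketone body synthesis none had an unadjusted p under 0.05, and of 30 peroxisomal genes 1 was higher and 1 lower. The medians of these lists were 0.17, 0.09 and 0.04, and with median centring 0.22, 0.12 and 0.08. Each turned to at or below -0.02 on the Cy5 channel alone, so their direction depended on the processing. Among 35 other PPARα-responsive genes none passed, and 7 were lower (4.56% over all genes) and 2 higher (3.74% over all genes) at an unadjusted p. The lower ones included the fatty acid-binding proteins Fabp3 at -1.25 (SE 0.46, adjusted p = 0.41) and Fabp4 at -0.78 (adjusted p = 0.183). Others were the lipid droplet protein Cidea at -0.74 (adjusted p = 0.102) and the fatty acid transporter Cd36 at -0.62 (adjusted p = 0.189). Ppara differed by 0.15 (95% interval -0.09 to 0.39, adjusted p = 0.858). Of 30 constitutive proteasome subunit genes all were above 0, with a median of 0.15, and 6 were higher at an unadjusted p (3.74% over all genes). With median centring and with the Cy5 channel alone 0 were, with medians of 0.17 and 0.04. Psmb6, at 0.28 (adjusted p = 0.203), turned to -0.06 on the Cy5 channel alone.

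Krt23, a keratin, read 0.91, 0.50 and 0.59 in MycF/F arrays and 0.15, 1.06, 0.62 and 0.64 in MycF/F,ERT2-Cre arrays. The groups overlapped widely, with a difference of -0.05 (95% interval -0.67 to 0.57, adjusted p = 0.994), whose sign turned under several alternatives. Its difference between diets was 3.34 in MycF/F,ERT2-Cre and 3.32 in MycF/F livers (adjusted p = 4.2e-06 and 0.00064 in limma), comparisons that share these arrays with the one above.

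The genotypes were also compared on control diet, where 1 MycF/F array of pooled RNA stood against 4 MycF/F,ERT2-Cre arrays and was taken to vary like the arrays of the other groups. No gene passed limma's adjusted threshold there of 24899 tested, and 446 had an unadjusted p under 0.05 (1.79%, with 0.558% higher and 1.23% lower). Of the 26 genes called on the drug, 24 had the same sign on control diet, 19 of the 21 lower genes and all 5 higher ones. Slc39a4 differed by 1.05 on control diet beside 1.33 on the drug, Nop56 by -0.33 beside -0.65 and Rplp1 by -0.31 beside -0.92. The ribosomal protein family had a median of -0.09 on control diet beside -0.38 on the drug. DNA replication had -0.18 beside -0.79, and ribosome biogenesis -0.17 beside -0.27. Complement and coagulation had 0.12 beside 0.29, and drug-metabolizing genes 0.20 beside 0.17. Of 31 complement and coagulation genes 7 were higher on control diet at an unadjusted p, against 0.558% of all genes. The differences on the 2 diets share their estimate of spread, and the test that bears on them is that of the difference between diets.

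For that difference between diets no gene of 24874 passed (smallest adjusted p 0.9999 in limma), and 537 had an unadjusted p under 0.05 (2.16%), 1.36% of all genes with a higher and 0.796% with a lower difference on the drug, so no gene's genotype effect was shown to depend on the diet. Among ribosomal protein genes 17 of 76 had a more negative difference on the drug at an unadjusted p, against the 0.796% over all genes. The SE of such a difference was 0.20 by the median, and it rests on the single MycF/F control array.

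Set against control diet within each genotype, the families that separated the genotypes on the drug behaved as follows, in comparisons that share the 7 arrays described here. Ribosomal protein genes had a median drug effect of 0.41 in MycF/F livers and 0.10 in MycF/F,ERT2-Cre livers. The drug effect on Rplp1 was 0.47 in MycF/F livers and -0.14 in MycF/F,ERT2-Cre livers, and that on Ctps was 1.12 and 0.45. Each MycF/F value rests on the single control array of pooled RNA, and the difference between the genotypes in these effects did not pass for any gene. DNA replication genes had medians of 0.28 and -0.29 in the same order, and complement and coagulation genes of -1.36 and -1.02, with 28 of 33 tested members in MycF/F livers and 28 of 32 in MycF/F,ERT2-Cre livers called lower on the drug. Over all genes 6.47% were called for the drug in MycF/F livers (3.23% higher, 3.24% lower) and 16.3% in MycF/F,ERT2-Cre livers (9.1% higher, 7.2% lower), from 1 and 4 control arrays.

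**Figure D5:**
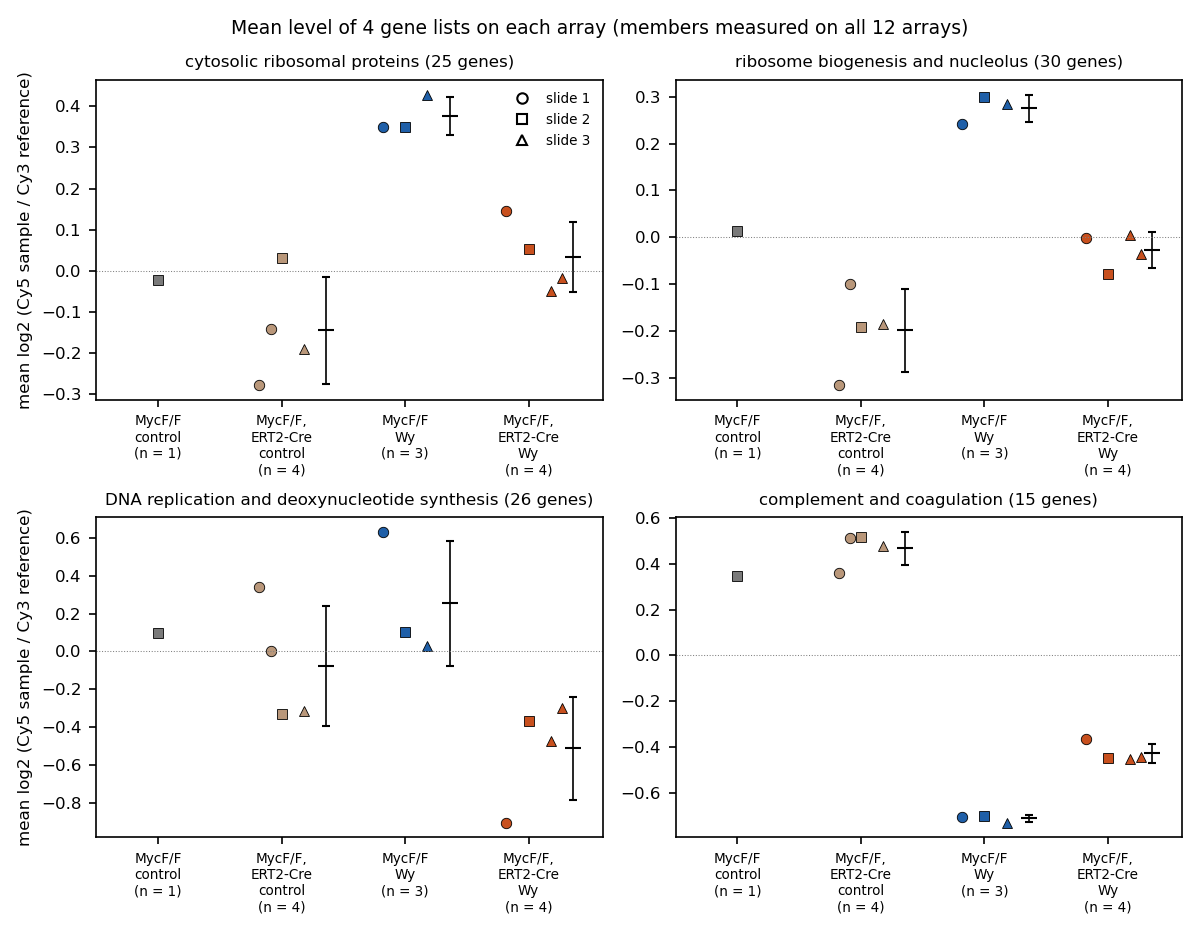
Mean log2 ratio of 4 gene lists on each of the 12 arrays, over the members measured on all 12, by group; symbols mark the slide and the bar beside each group is its mean with SD. On Wy-14643 the MycF/F arrays lie above all MycF/F,ERT2-Cre arrays for ribosomal proteins, ribosome biogenesis and DNA replication and below them for complement and coagulation.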

How the data were processed

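The deposited intensity columns used were the median Cy5 and Cy3 signals of each spot and its local background, as written by Feature Extraction 11.0.1.1 (Agilent) per the file headers. The log10 ratio, also deposited, of Cy5 over Cy3, corrected by the authors' scanner software per the file headers, served as an alternative. Each array held 45018 spots for 41174 probes that are not controls. Symbols came from a RefSeq table of GRCm38.p6, in which 16792 of 17440 RefSeq mRNA accessions matched, and promoters came from RefSeq of the same build.

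With limma (version 3.58.1) under R (version 4.3.3), and the packages statmod (version 1.5.0) and data.table (version 1.17.8), signals were corrected with normexp (offset 50) and ratios loess-normalized within arrays, with control spots at weight 0 and outlier spots left out. Repeat spots were averaged per probe. Probes had to exceed background clearly, by the scanner's mark, in at least 0.5 of their spots on no fewer than 3 arrays of 12 (31846 probes), and a gene was read by its brightest kept probe (25260 genes or unnamed probes). The 12 arrays were fitted together, each group with 1 mean of its own (8 residual degrees of freedom, lmFit and eBayes). A gene missing on an array was fitted on the others. P-values are two-sided, with Benjamini-Hochberg adjustment over all genes tested. The calculation was tested on simulated data.

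Genes were named by rule: the 12 most raised and 12 most lowered called genes measured on at least 2 MycF/F and 3 MycF/F,ERT2-Cre arrays with 1 sign in every slide, up to 3 called members of each list, every Myc probe, and Krt23, Odc1 and Ppara. All other named genes were chosen after their values were seen. A called gene is counted but not reported here. Members and lists were chosen with earlier results of these data known. Same-numbered arrays of the genotypes on the drug share a slide, and their deviations from the group means correlated at 0.42, 0.16 and 0.17 across genes, which meets the rule set for pairing (each above 0.1). Arrays of unlike number correlated at -0.28 to 0.20, so replicates 2 and 3 are not told apart from other arrays by this check. The reported fit has no pair term, and the SE and adjusted p of each gene come from it unless another fit is named. Fits with the replicate number as a block are given for the number of calls and for Myc. With that block on 12 arrays, 0 of the 21 called genes with a symbol kept their call. On the 7 arrays 5 kept it and 16 lost it. No sign turned among them in either fit. Alternatives changed the normalization, background, probe filter, probe choice, blocks and arrays.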

Additional observations from a re-analysis of the deposited data

Results flagged for a closer look

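Among 172 groups of 4 arrays a single array far from the rest was looked for, and 4 were found. Groups with a missing value, such as those of Rplp1, are counted in the 172 but could not be checked. In a group that was checked chance gives such an array about 1 time in 20. Nop56 read 0.01 in MycF/F,ERT2-Cre replicate 4 on Wy-14643 (0.0148), with the other 3 arrays between -0.0943 and -0.089. Cdc45, which helps to start replication forks, read -0.92 in MycF/F,ERT2-Cre replicate 1 on Wy-14643 against -0.44 to -0.35 in the others. Mad2l1 read -1.46 in the same array against -0.63 to -0.48. The mean of the complement and coagulation genes was -0.36 in that array against -0.45 to -0.44. This array lies on slide 1, and the part of the slide in these values was not tested.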

How the results depend on the processing

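The 26 calls came to 0 with the deposited log ratios, median centring, the Cy5 channel alone and the replicate block on 12 arrays, to 49 in the fit of the 7 arrays alone, to 110 without slide 1, and to between 0 and 8 when 1 of the 7 arrays was left out. The replicate block in the fit of 7 arrays gave 23, slide as a block 35, and outlier spots kept 39. On control diet the 0 calls became 4 on the Cy5 channel alone and 2 without slide 1, and for the difference between diets they stayed at 0 in every fit run. The median of ribosome biogenesis was -0.34 with the deposited log ratios, -0.22 with median centring and -0.35 on Cy5 alone. That of DNA replication was -1.14 with the deposited log ratios, and that of complement and coagulation 0.34 with median centring and 0.27 to 0.35 when 1 array was left out. With median centring the members at an unadjusted p under 0.05 numbered 29 for ribosomal proteins (43 to 68 when 1 array was left out), 5 for ribosome biogenesis, 15 for DNA replication and 5 for complement and coagulation. On Cy5 alone they numbered 36, 13 and 8 for the first, second and last of these. The Myc probe A_51_P102096 differed by -1.67 with median centring (adjusted p = 0.424) and by -1.81 with the replicate block (adjusted p = 0.0727), neither past the threshold, and by -1.97 to -1.79 when 1 array was left out. Signs turned for D630023F18Rik (0.44), Psmb6 (-0.059) and Myc probe A_52_P278549 (0.088) on Cy5 alone. Odc1 turned to 0.037 as the mean of its probes and 0.000901 without MycF/F replicate 2 (from -0.22 when 1 array was left out). Krt23 turned to 0.061 on Cy5 alone, 0.0018 with slide and 0.061 with replicate as a block, 0.23 without slide 1, and 0.073 and 0.11 without replicate 1 of MycF/F or MycF/F,ERT2-Cre, with -0.19 as the lowest value when 1 array was left out. The cause of these changes was not tested. No setting moved the median of all genes outside 0.0075 to 0.034.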
